A study of Mus musculus with 6 samples.

Results

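The transcription factors Hnf4a, Foxa1, Foxa2, Foxa3, Onecut1, Onecut2, Cebpa and Cebpb, which set and maintain the identity of hepatocytes, were examined in the liver of GHRH-KO mice. The 8 genes were taken by name, with earlier results of these data known, together with every probe set that the array annotation gives to only that gene. They had 15 probe sets, of 34945 that stand for 1 gene and 18193 genes in all. RNA came from the livers of 3 male mice with a targeted disruption of Ghrh and 3 male wild-type littermates, all on a mixed C57BL6 and 129SV background, fed a standard diet, 10 months of age and fasted for 6 to 8 h. The mutation is present in the whole animal, so the mutant liver is that of a GH-deficient mouse. Each array held 1 animal. Expression was measured on Affymetrix arrays, on which a set of short probes reports 1 transcript, and a value is the RMA value on the log2 scale, so that a step of 1 is a 2-fold change. Genotypes were compared for 1 probe set at a time. The Ghrh probe set served as a rough mark of background for others, and a summed level adds the linear values of all markers of a list. Values are listed in the order of control replicates 1 to 3 and GHRH-KO replicates 4 to 6. Where a gene had several probe sets, the one with the highest mean over the 6 arrays stood for the gene. The 25000 brightest probe sets were tested by limma, a linear model with a spread moderated over all probe sets, with Benjamini-Hochberg adjustment over all of these, and called means an adjusted p under 0.05 with a fold above 1.5 or under 0.67. All 15 member probe sets were among those tested.

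Hepatocyte identity rests on a network of factors that bind each other's regulatory regions. HNF4A is a nuclear receptor that acts on genes of lipoproteins, clotting and metabolism. The FOXA proteins are forkhead pioneer factors that open chromatin, the ONECUT proteins carry a cut domain and a homeodomain, and the C/EBP proteins are leucine zipper factors, CEBPA acting in metabolism and CEBPB in the acute phase response. GH reaches hepatocytes through its receptor, JAK2 and STAT5, and Onecut1 is one of the liver factors known to respond to GH.

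The regions before the start of Onecut1, Foxa3 and Foxa1 are shown because these were the 3 members whose gene value differed between genotypes at an unadjusted p under 0.05. Each run gives the 250 bases before the start (RefSeq, GRCm38.p6), read 5′ to 3′ on the strand of the gene, and capitals mark matches to the motifs described after them.
Onecut1, chr9:74861671-74861920, plus strand: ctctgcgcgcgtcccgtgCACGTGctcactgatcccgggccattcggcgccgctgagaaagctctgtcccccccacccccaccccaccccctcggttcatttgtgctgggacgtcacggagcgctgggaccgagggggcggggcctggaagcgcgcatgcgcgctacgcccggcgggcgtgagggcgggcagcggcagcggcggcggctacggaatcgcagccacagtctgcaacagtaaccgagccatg
Foxa3, chr7:19023540-19023789, minus strand: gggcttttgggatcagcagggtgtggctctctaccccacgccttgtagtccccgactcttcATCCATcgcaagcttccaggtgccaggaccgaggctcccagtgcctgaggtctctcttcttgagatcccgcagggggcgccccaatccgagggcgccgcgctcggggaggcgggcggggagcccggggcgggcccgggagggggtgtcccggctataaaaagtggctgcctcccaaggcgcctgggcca
Foxa1, chr12:57546112-57546361, minus strand: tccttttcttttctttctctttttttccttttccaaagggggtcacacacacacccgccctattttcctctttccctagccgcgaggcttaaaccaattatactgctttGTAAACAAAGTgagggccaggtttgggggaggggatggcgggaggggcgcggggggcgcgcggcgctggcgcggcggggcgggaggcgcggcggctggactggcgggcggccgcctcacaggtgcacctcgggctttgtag

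The windows of the 3 genes differed in the letters they held. Onecut1 had an E-box (CACGTG), the site of MYC and related factors, from 232 to 227 bases before its start. Foxa3 had a match to the ONECUT motif (ATCNAT) from 189 to 184 bases before its start. Foxa1 had a match to a FOXA motif (TGTTTAC) from 141 to 135 bases before its start, which overlapped a match to the HNF4 core (CAAAGT) from 136 to 131. Both strands were searched. In 32851 windows of the same length from all genes, 6.02% held the E-box, 18.9% the ONECUT motif, 3.17% the FOXA motif and 12.6% the HNF4 core. The ONECUT motif was also in a window of Foxa2 and of Hnf4a, and the HNF4 core in a window of Foxa2. The HNF1 core (GTTAAT), held by 6.43% of all windows, was in a window of Foxa2 and of Hnf4a. The STAT5 motif (TTCNNNGAA) was held by 7.02% of all windows, the other FOXA motif (TGTTTGC) by 4.30% and the CEBP motif (TTGCNNAA) by 9.56%, and none of these letters was in the 10 windows of the 7 members in the table (Hnf4a, Foxa1, Foxa2, Foxa3, Onecut1, Cebpa and Cebpb). A match is a description of the sequence and not a bound site. The windows of Cebpb, Onecut1 and Foxa3 were rich in G and C, with 81.6%, 71.6% and 68.8%, against a median of 52.4% over all windows, and the windows of Hnf4a had 51.2% and 57.6%. The ratio of observed to expected CpG was 0.97 for Onecut1 and 0.99 for Cebpb but 0.18 and 0.19 for Hnf4a, with a median of 0.37 over all windows.

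The GHRH-KO replicate 5 array stood apart in the Gapdh and Actb signs of RNA quality that the array carries. The probe set at the 3′ end of Gapdh exceeded that at the 5′ end by 5.27 on the log2 scale in this array and by 0.15 to 0.67 in the other 5 arrays. For Actb the same contrast was 2.51, against 0.88 to 1.31. A pyruvate carboxylase pair gave a smaller gap, 5.57 against 4.88 to 5.18. The interquartile range of each array's deviations from the probe set medians did not set replicate 5 apart (0.23, against 0.16 to 0.23). Among the 15 probe sets of the members, 4 had their lowest value of all 6 arrays in GHRH-KO replicate 5, and 3 lay more than 1 on the log2 scale under the mean of GHRH-KO replicates 4 and 6. These 3 were the Cebpb probe set 1427844_a_at, with a difference of -2.76, the Hnf4a probe set 1421983_s_at (-2.45) and the Onecut2 probe set 1444980_at (-1.07). The Cebpa probe set followed with -0.97. The part of RNA quality in these values was not tested, and each member is therefore given with and without this array. Ghrh itself was between 4.40 and 4.75 in all arrays, a log2 difference of -0.04 (adjusted p = 0.925 by limma over all probe sets), and so it is no check of the genotype in liver. Array medians ranged from 4.95 to 4.99.

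**Figure D1:**
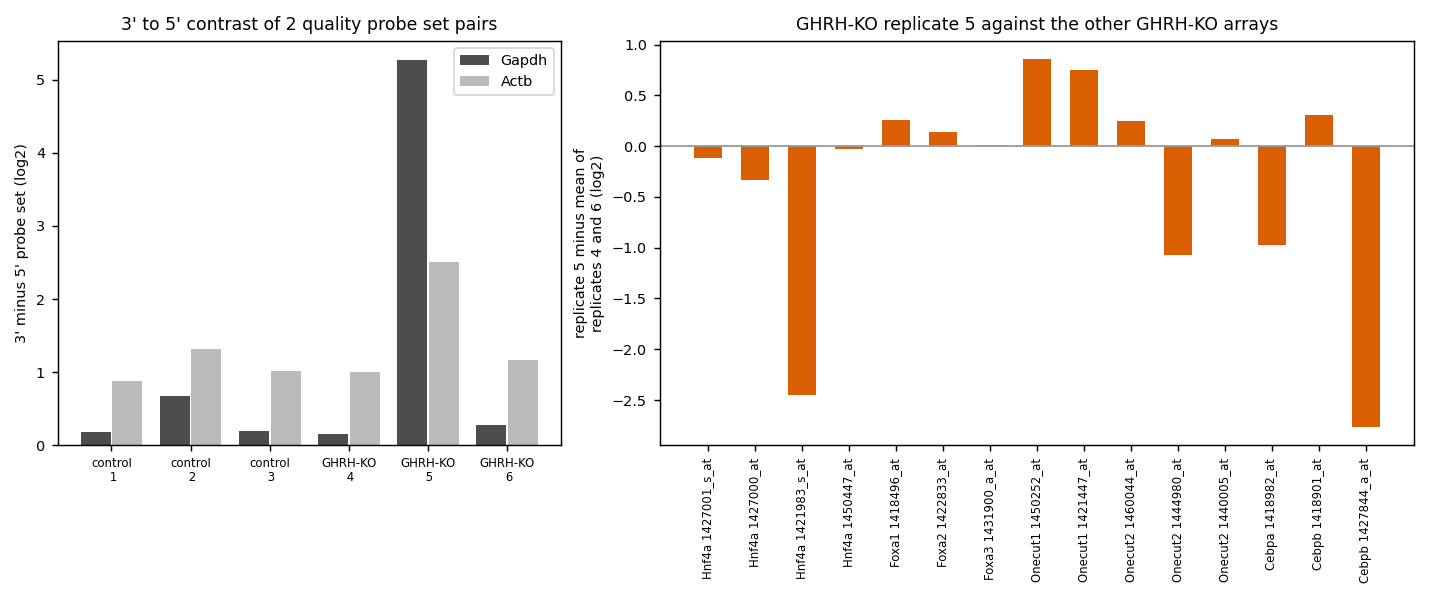
Left, bars give the value of the 3′ probe set minus that of the 5′ probe set (log2) for Gapdh and Actb in each of the 6 arrays. Right, bars give GHRH-KO replicate 5 minus the mean of GHRH-KO replicates 4 and 6 (log2) for the 15 probe sets of the 8 factors. The array of GHRH-KO replicate 5 has a Gapdh contrast of 5.27, and the bars of Cebpb 1427844_a_at and Hnf4a 1421983_s_at reach -2.76 and -2.45.

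Onecut1 was lower in GHRH-KO liver by both of its probe sets, and 1 of them passed the test. It was the only one of the 15 member probe sets to do so. ONECUT1, also called HNF6, acts on genes of glucose and bile acid metabolism and on other liver factors. With the probe set 1421447_at, Onecut1 had values of 6.86, 6.11 and 6.10 in the wild-type mice against 3.98, 5.01 and 4.54 in the mutants. All GHRH-KO values lay below all control values. The level fell from 6.36 ± 0.44 to 4.51 ± 0.52 (SD, n = 3), a log2 difference of -1.85 (standard error 0.31, 95% interval -2.57 to -1.12, adjusted p = 0.0411 from limma), or 3.60 times lower. The GHRH-KO mean lies in the range of the Ghrh probe set (4.40 to 4.75), whose transcript is not a liver product, so this factor may be a lower bound. GHRH-KO replicate 4 lay under that range and replicate 5 above it. Whether 1421447_at was at its own background was not tested. Of all 25000 probe sets tested, 0.848% were called lower in GHRH-KO liver.

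The other Onecut1 probe set, 1450252_at, gave the higher signal and stands for the gene. It had values of 8.14, 8.16 and 7.18 in the wild-type mice against 5.69, 6.92 and 6.43 in the mutants. The groups did not overlap, but control replicate 3 lay nearer to the highest GHRH-KO value than to the other controls. The log2 difference was -1.48 (standard error 0.37, 95% interval -2.36 to -0.60), a level 2.79 times lower that did not pass the threshold (adjusted p = 0.113 from limma). Both probe sets had GHRH-KO replicate 4 as the lowest and replicate 5 as the highest of the GHRH-KO arrays. Without replicate 5 the differences were -2.10 (adjusted p = 0.0309) and -1.77 (adjusted p = 0.0936). The call of 1421447_at was lost without any 1 of the other 5 arrays, where its difference ran from -1.98 to -1.58 and its adjusted p from 0.0772 to 0.133. By the probe set with the lowest p, Onecut1 was called lower, as were 1.22% of all genes.

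Duct cells and pancreas also use Onecut1, and a few of their markers were high in control replicate 1. Of 14 markers of both lists with a probe set, this array had the highest control value in 6 and the lowest in 6. The examples that stood out were chosen after their values were seen. The duct keratin Krt19 read 7.04 in control replicate 1 and 4.59 to 4.97 in the other 5 arrays, and the pancreatic enzyme gene Ctrb1 read 8.41 there and 5.24 to 5.64 in the others. The duct marker Cd24a read 7.74 in control replicate 1 and 4.57 and 4.98 in the other controls. In GHRH-KO arrays it was 6.46 to 7.24, so it was not high in that control alone. Of 7 cholangiocyte markers with a probe set, 3 had a mean at or under the top Ghrh value, and the summed level (log2) was 7.55 to 8.91 in controls and 7.99 to 8.38 in GHRH-KO arrays. For 7 pancreas markers, 3 of them at that level, the ranges were 8.10 to 9.03 and 8.13 to 8.17. Sox9, a transcription factor of duct cells, read 5.41 to 5.72 in controls and 4.76 to 5.16 in GHRH-KO arrays, which did not overlap (log2 difference -0.54, unadjusted p = 0.00882, adjusted p = 0.139 from limma). Of all probe sets tested, 26.2% had groups that did not overlap. Krt19 also had a negative log2 difference (-0.60). The differences of the other cholangiocyte markers were positive, with 1.01 for Cd24a and 0.25 for Epcam. Krt7 (0.30), Cldn4 (0.19) and Cftr (0.09) were the 3 at or under the top Ghrh value. None of the markers of either list was called, and their part in the Onecut1 values was not tested. Without control replicate 1, the Onecut1 probe sets differed by -1.59 (adjusted p = 0.0842) and -1.32 (adjusted p = 0.257). In pieces of whole liver, fewer cells of a type and less RNA per cell cannot be told apart.

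Onecut2, the paralog of Onecut1, was measured by 3 probe sets and did not show such a difference. With 1460044_at, which stands for the gene, Onecut2 had values of 9.35, 9.87 and 9.66 in the wild-type mice against 9.68, 9.77 and 9.36 in the mutants. The groups overlapped almost wholly. The log2 difference was -0.02 (95% interval -0.44 to 0.39, adjusted p = 0.957 from limma), an interval that leaves out a decrease of the size seen for Onecut1, and -0.11 without GHRH-KO replicate 5. The probe sets 1440005_at and 1444980_at gave -0.14 and -0.43 (adjusted p = 0.690 and 0.478), which became -0.17 and -0.08 without that array. Whether the 2 genes differ in their change was not tested.

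**Figure D2:**
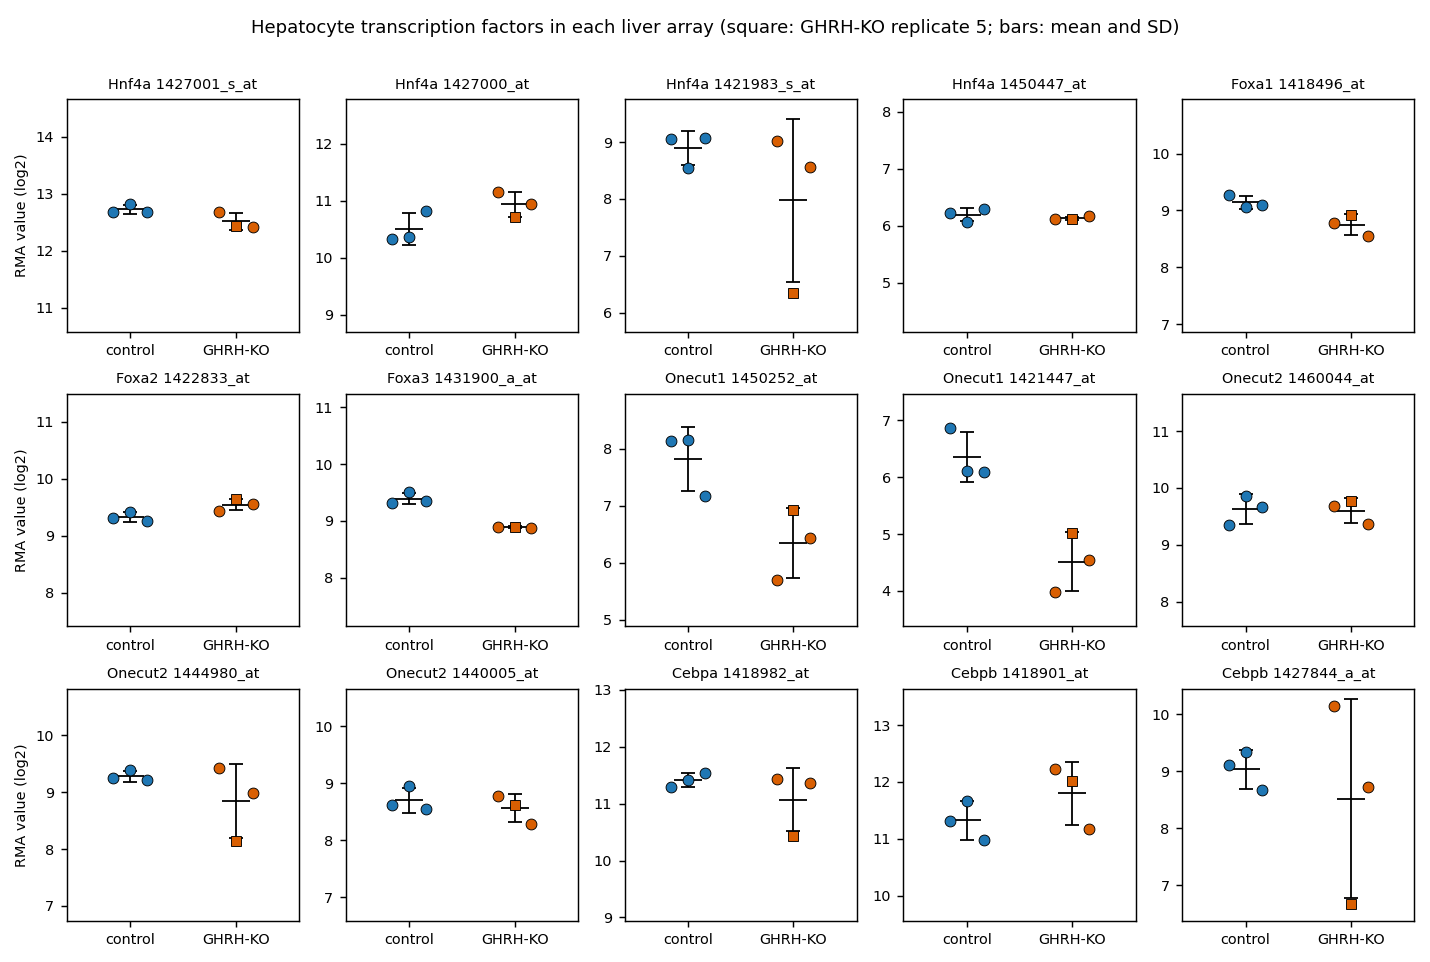
RMA values (log2) of the 15 probe sets of the 8 factors by array, for 3 control and 3 GHRH-KO mice. Black marks give the mean and SD per genotype and a square gives GHRH-KO replicate 5. Each panel has its own level but the same span. The groups lie apart in both Onecut1 panels, in Foxa1 and in Foxa3 with GHRH-KO lower, and in Foxa2 with GHRH-KO higher, and the square lies far under the other points for Hnf4a 1421983_s_at and Cebpb 1427844_a_at.

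The 3 FOXA genes each had 1 probe set, and the values of the genotypes did not overlap in any of them. Foxa3, the member of the family known for metabolic genes of adult liver, was lower in GHRH-KO mice, as was Foxa1, while Foxa2 was higher. None of the 3 was called. Foxa3 had values of 9.32, 9.50 and 9.35 in the wild-type mice against 8.90, 8.90 and 8.88 in the mutants. The GHRH-KO arrays agreed within an SD of 0.013, the smallest spread of a member's gene value in either group. The log2 difference was -0.50 (standard error 0.11, 95% interval -0.75 to -0.24, adjusted p = 0.0810 from limma), or 1.41 times lower, which is also less than the fold limit. It was -0.50 without GHRH-KO replicate 5 and ran from -0.54 to -0.44 with 1 array left out.

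Foxa1 had values of 9.27, 9.06 and 9.10 in the wild-type mice against 8.77, 8.92 and 8.55 in the mutants. All GHRH-KO arrays were lower than all controls. The log2 difference was -0.39 (standard error 0.14, 95% interval -0.71 to -0.07, adjusted p = 0.199 from limma), and -0.48 without GHRH-KO replicate 5. Foxa2, which like Foxa1 works in the formation of the liver and also in its response to fasting, had values of 9.31, 9.43 and 9.26 in the wild-type mice against 9.44, 9.64 and 9.56 in the mutants. The lowest GHRH-KO value was just above the highest control value. The log2 difference was 0.22 (standard error 0.11, 95% interval -0.05 to 0.49, adjusted p = 0.359 from limma), and 0.17 without GHRH-KO replicate 5. The intervals of Foxa2 and Foxa3 did not overlap, but a difference between the changes of the 2 genes was not tested. Groups that lie apart were common on these arrays: 5 of the 15 member probe sets had them, and so did 26.2% of all probe sets tested.

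Hnf4a gave different answers by its 4 probe sets, and none was called. The probe set that stands for the gene, 1427001_s_at, had values of 12.68, 12.81 and 12.68 in the wild-type mice against 12.68, 12.43 and 12.42 in the mutants. GHRH-KO replicate 4 lay among the controls and the other GHRH-KO arrays below them. The log2 difference was -0.21 (95% interval -0.50 to 0.07, adjusted p = 0.394 from limma), and -0.17 without GHRH-KO replicate 5. The probe set 1427000_at pointed the other way, with 10.33, 10.36 and 10.82 in controls and 11.15, 10.71 and 10.94 in GHRH-KO arrays. Its log2 difference was 0.43 (95% interval 0.003 to 0.86, adjusted p = 0.274), or 0.55 without replicate 5, and control replicate 3 overlapped the GHRH-KO arrays. The probe set 1421983_s_at read 9.06, 8.55 and 9.08 in controls and 9.02, 6.34 and 8.56 in GHRH-KO arrays, so that its difference of -0.92 (adjusted p = 0.478) rested on replicate 5, without which it was -0.10. The dimmest, 1450447_at, differed by -0.06 (95% interval -0.32 to 0.20, adjusted p = 0.803), or -0.05 without replicate 5. Hnf4a is transcribed from alternative promoters, and the annotation used here does not say which transcripts each probe set reads.

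No C/EBP probe set was called, and the range within the GHRH-KO arrays was larger than the difference between genotypes in each. Cebpa, which sustains metabolic genes of the resting hepatocyte, had values of 11.28, 11.42 and 11.54 in the wild-type mice against 11.43, 10.43 and 11.36 in the mutants. Only replicate 5 lay outside the control range. The log2 difference of -0.34 (95% interval -0.97 to 0.29, adjusted p = 0.526 from limma) became -0.02 without that array. Cebpb had values of 11.32, 11.67 and 10.97 in the wild-type mice against 12.22, 12.01 and 11.17 in the mutants with 1418901_at. The groups overlapped, with a log2 difference of 0.48 (95% interval -0.23 to 1.19, adjusted p = 0.430), which was 0.38 without replicate 5. The second probe set, 1427844_a_at, read 9.10, 9.34 and 8.66 in controls and 10.15, 6.67 and 8.72 in GHRH-KO arrays, and its log2 difference went from -0.52 (adjusted p = 0.750) to 0.40 (adjusted p = 0.703) without replicate 5.

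**Figure D3:**
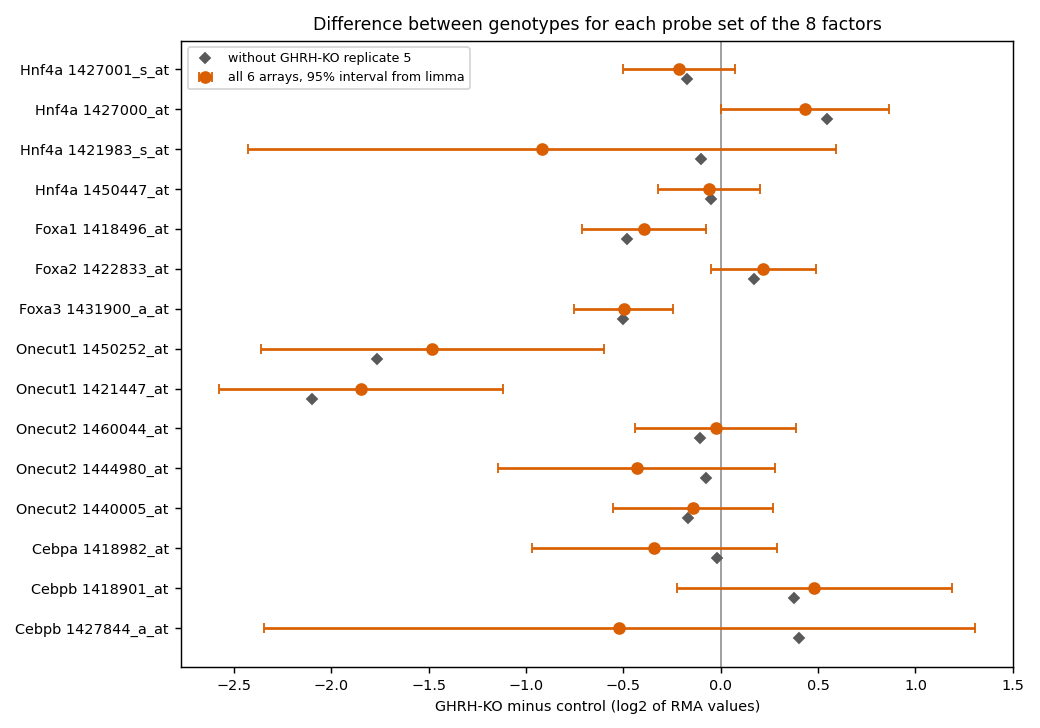
GHRH-KO minus control (log2 of RMA values) for the 15 probe sets of the 8 factors, with the 95% interval from limma over all 6 arrays in orange and the difference without GHRH-KO replicate 5 as grey diamonds. The intervals of both Onecut1 probe sets, Foxa1 and Foxa3 lie below 0, and the differences of Hnf4a 1421983_s_at and Cebpb 1427844_a_at move to -0.10 and 0.40 without that array.

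By gene value, 6 of the 8 members were lower and 2 higher in GHRH-KO liver, with a median log2 difference of -0.28 against 0.00 over all 12410 genes tested. Without GHRH-KO replicate 5 the directions held, with -1.77 for Onecut1, -0.50 for Foxa3, -0.48 for Foxa1 and -0.17 for Hnf4a. In that fit Onecut2 differed by -0.11 and Cebpa by only -0.02, and Foxa2 and Cebpb by 0.17 and 0.38. None of the 8 was called, while 1.76% of all genes were, 98 higher and 120 lower in GHRH-KO mice. At an unadjusted p under 0.05, Onecut1, Foxa3 and Foxa1 were lower by gene value and no member was higher, where 10.1% of all genes were lower and 9.17% higher. The Hnf4a probe set 1427000_at, which does not stand for the gene, was higher by 0.43 (unadjusted p = 0.0487 from limma). Array weights, which give arrays with more scatter less influence, brought Foxa3 to an adjusted p of 0.0323 with a log2 difference of -0.48, still within the fold limit. The range of its adjusted p over all alternatives was 0.0323 to 0.228.

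The genes whose values followed these members most closely over the 6 arrays were sought among all genes tested. For Onecut1 they were Cyp2d10 (Pearson's r = 0.997), a P450 enzyme, Tmem115 (0.997) and Mfsd6 (0.992). For Foxa3 they were Fam98a (0.998), Tmem184c (0.995) and Mfsd3 (0.995), and Tmem184c was called with a log2 difference of -1.02 (adjusted p = 0.0274 from limma). For Foxa1 they were Myo6, Zfp445 and Rint1 (0.986 to 0.989). With 6 arrays and 12410 genes such values are a description only. All 9 genes were lower in GHRH-KO mice by 0.09 to 1.02 on the log2 scale in the mean. This direction follows from the choice, because they were taken for a high positive r with members that were lower.

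Other genes of the network were read against all genes tested, of which 1.76% were called, and 10.1% were lower and 9.17% higher by unadjusted p under 0.05. The lists were chosen with earlier results of these data known, so list counts beside these shares are a description only. Of 5 tested genes of the HNF4, ONECUT, C/EBP and FOXO families outside the members, none was called, and the median log2 difference was 0.31, or 0.14 without GHRH-KO replicate 5. The stress factor Ddit3 had a log2 difference of -0.42 (adjusted p = 0.170) and Foxo3, a forkhead factor held back by insulin, one of 0.33 (adjusted p = 0.240 from limma). Hnf4g and Onecut3 lay under the intensity filter, and Cebpe was not analysed here. Of 27 further liver transcription factors, 2 rose and none fell (unadjusted p under 0.05 in 7 higher and 5 lower), with a median of -0.11, or -0.06 without GHRH-KO replicate 5. Trim24, a nuclear receptor cofactor, read 8.24, 7.93 and 7.84 in controls and 8.92, 9.09 and 8.78 in GHRH-KO arrays, a log2 difference of 0.92 with a standard error of 0.15 (adjusted p = 0.0352, limma). Tef, a factor with a leucine zipper that follows the circadian clock, read 9.71, 9.99 and 10.17 in controls and 10.70, 10.84 and 10.83 in GHRH-KO arrays, a log2 difference of 0.83 with a standard error of 0.14 (adjusted p = 0.0466). Tef lost its call without any 1 of the 6 arrays (adjusted p from 0.0715 to 0.159). Trim24 kept it only without control replicate 1 and lost it without each of the other 5 arrays (adjusted p from 0.0734 to 0.128).

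Of the known targets of the 4 families, Slc10a1 and Igfbp1 were called. A gene can stand on several lists, and these lists too were chosen with earlier results of these data known. Of 23 tested HNF4A targets, 1 fell and none rose (unadjusted p under 0.05 in 5 higher and 4 lower), with a median log2 difference of -0.05, or -0.11 without GHRH-KO replicate 5. The one that fell was Slc10a1, the uptake carrier for bile acids, with 13.02, 12.73 and 12.83 in controls and 11.90, 11.88 and 12.17 in GHRH-KO arrays, a log2 difference of -0.88 with a standard error of 0.14 (adjusted p = 0.0311, limma). Its call was lost without any 1 of the 6 arrays, where the adjusted p ran from 0.0660 to 0.104. Cyp2d9, a P450 enzyme of male liver named after its values were seen, had a log2 difference of -0.93 (adjusted p = 0.0843), and without GHRH-KO replicate 5 it was called lower with -1.15 (adjusted p = 0.0154). Of 13 tested FOXA targets, 1 rose and none fell (unadjusted p under 0.05 in 5 higher and 0 lower), and 12 of the 13 had a positive difference, with a median of 0.16. The one that rose was Igfbp1, the IGF binding protein of fasting liver, with 6.93, 7.52 and 5.83 in controls and 11.88, 11.56 and 10.5 in GHRH-KO arrays, a log2 difference of 4.55 with a standard error of 0.49 (adjusted p = 0.00833). It was called without any 1 of the arrays, with a log2 difference from 4.09 to 4.96 and an adjusted p from 0.0148 to 0.0354.

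No C/EBP or ONECUT1 target was called. Of 23 C/EBP targets tested, 4 higher and 1 lower had an unadjusted p under 0.05, and the median log2 difference was 0.24. The genes with the lowest p were Pparg, the nuclear receptor of fat storage, with a log2 difference of 1.04 (adjusted p = 0.0778), and Pck1, the rate-limiting enzyme of gluconeogenesis, with 0.62 (adjusted p = 0.125 from limma). Pck1 also stands on the HNF4A, FOXA and ONECUT1 lists. Of 8 ONECUT1 targets tested, which include Foxa1, Foxa2 and Hnf4a, 2 higher and 1 lower had an unadjusted p under 0.05, with a median of 0.22. The 11 hepatocyte markers tested had no call, a median of -0.05 (0.02 without GHRH-KO replicate 5) and differences from -0.20 to 0.21, and their summed level was 17.10 to 17.15 in controls and 17.14 to 17.21 in GHRH-KO arrays.

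**Figure D4:**
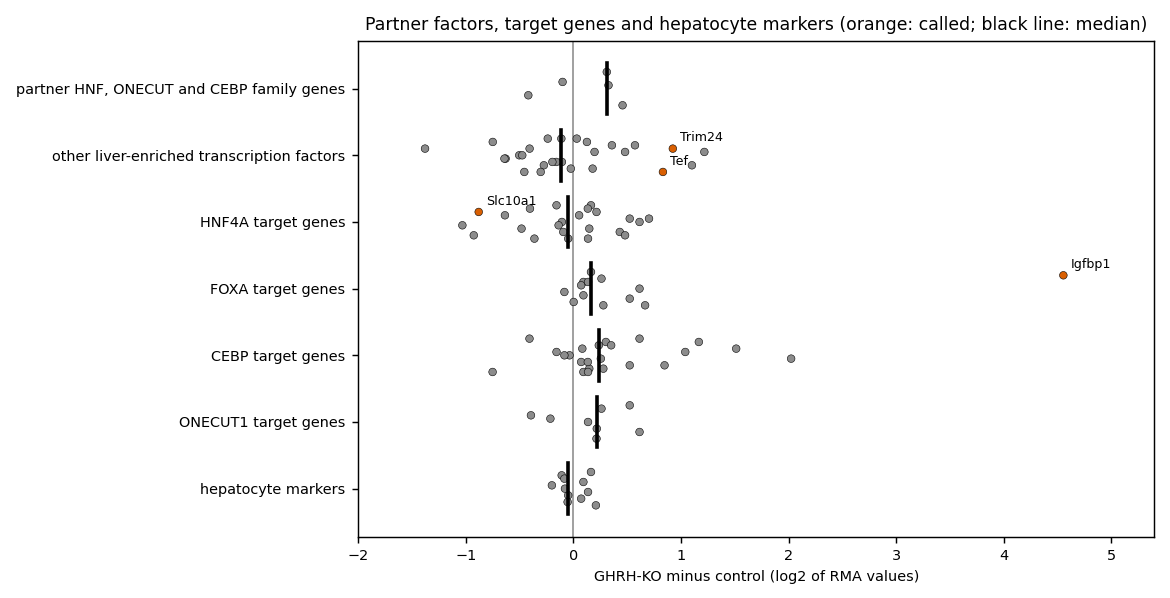
GHRH-KO minus control (log2 of RMA values) for each tested gene of the lists of partner factors, other liver factors, targets of the 4 families and hepatocyte markers, with called genes in orange and the median of each list as a black line. Trim24, Tef and Igfbp1 lie to the right and Slc10a1 to the left among the called genes, and hepatocyte markers lie between -0.20 and 0.21.

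Cebpb and the acute phase genes that C/EBP factors act on shared their highest array or their lowest control array in most cases, in a choice of genes made after their values were seen. GHRH-KO replicate 4 had the highest value in 6 of 8 such genes (Orm1, Orm2, Saa1, Saa2, Lcn2 and Hp, but not Il6ra and Crp) and in both probe sets of Cebpb. Control replicate 3 held the lowest control value in all 8 genes and in both probe sets. Among all 15 member probe sets it was the lowest control in 8, against 4 for control replicate 1 and 3 for control replicate 2. Hamp, also on the C/EBP list but not among the 8, did not share this order. Its highest array was control replicate 2 (13.48), and its lowest control was replicate 1 (13.11). Lcn2, an iron-binding protein of inflammation, read 9.39, 10.66 and 7.08 in controls and 12.91, 9.92 and 10.38 in GHRH-KO arrays (log2 difference 2.02, standard error 1.05, adjusted p = 0.355 from limma). Saa2, a serum amyloid, ranged over 6.03 on the log2 scale and differed by 1.17 (standard error 1.33, adjusted p = 0.668). In both genes the range among the 3 controls was larger than the difference between genotypes.

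Markers of other cells were read beside these values. Kupffer cell or macrophage markers, cells that also use Cebpb, had a median log2 difference of 0.32 over 10 genes and 0.77 without GHRH-KO replicate 5, with none called and summed levels of 11.49 to 12.83 in controls and 11.57 to 13.07 in GHRH-KO arrays. For stellate cell or fibroblast markers all 8 differences were positive, with a median of 0.32 and none called. Endothelial cell markers had a median of 0.19 over 7 genes. Of 8 lymphocyte and 7 neutrophil markers, 7 and 5 had a mean at or under the top Ghrh value. Alas2, the enzyme of heme synthesis in red cell precursors, fell by 1.36 on the log2 scale (adjusted p = 0.0221 from limma, and from 0.0790 to 0.0846 if control replicate 2 or 3 or GHRH-KO replicate 6 is left out), while 3 other erythroid markers were at the level of Ghrh. The part of these cells in the values of the members was not tested.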

How the data were processed

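Liver RNA of 3 control and 3 GHRH-KO mice was hybridized to Affymetrix Mouse Genome arrays. The authors computed RMA expression scores (background correction, quantile normalization between arrays and a summary of each probe set), and the deposited values are on the log2 scale. The version of their software is not given in the sources used here. The table holds 45101 probe sets with values from 2.53 to 14.7, without the detection filter that the methods apply, so a dim probe set can be present at background, and normalization hides any change shared by all genes. For arrays, the number of animals limits the precision.

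The 64 control probe sets were left out of the tests. GHRH-KO minus control was tested by limma 3.58.1 (R 4.3.3) on the 25000 brightest probe sets, ranked by their mean, with Benjamini-Hochberg adjustment over all of these. Called means FDR < 0.05 together with a fold above 1.5 or under 0.67. Of the probe sets 34958 had 1 gene, 932 several and 9211 none listed. Of those with 1 gene, 34754 probe sets had a gene identifier that matched the RefSeq table (GRCm38.p6). Besides the members, the genes named are Ghrh, called genes of each list (up to 4, or else the 2 with the lowest p), called markers and the 3 genes most like a member with an unadjusted p under 0.05. Values of the cholangiocyte markers, Ctrb1, Hamp and the acute phase genes were named after they were seen. The members and lists were chosen with earlier results of these data known. The test was checked on simulated data. Alternatives were other filters, scalings, variance models, probe set rules and leaving out arrays. Plots used matplotlib 3.10.9 (Python 3.11.15).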

Additional observations from a re-analysis of the deposited data

How the results depend on the processing

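No paired analysis was possible because the sample labels do not say which animals shared a litter. Onecut1 kept its direction under all alternatives run with both probe sets, as did Foxa1, Foxa2, Foxa3 and Cebpa. The number of member genes called was 0, and 1 (Onecut1) by the probe set with the lowest p. With control replicate 2 and GHRH-KO replicate 5 both left out, 0 member probe sets were called in place of 1, and with 1 array left out 0 to 1. Of the genes of the pathway lists 4 were called, 11 with array weights, 2 without both arrays and 1 to 2 with 1 array left out, Igfbp1 in each of these fits and Trim24 in 1. Of the marker genes 1 was called, 2 with array weights, 0 without both arrays, 0 with plain probe sets alone and 0 to 3 with 1 array left out. Hnf4a turned from -0.21 to 0.43 by the probe set with the lowest p and with plain probe sets, which both read 1427000_at. Onecut2 turned from -0.024 to 0.011 without both arrays, and ran from -0.16 to 0.10 with 1 array left out (0.095 without control replicate 2 and 0.096 without GHRH-KO replicate 6). Cebpb turned from 0.48 to -0.020 with the mean of its probe sets. Fits with fewer arrays have fewer degrees of freedom, but the part of this in the lost calls was not tested, nor was the cause of any of these moves. Foxa3 has no plain probe set and thus no value there. Scalings moved the median of all probe sets to between -0.016 and -0.0013.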
